A study of Mus musculus with 1 sample.

Results

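Genomic imprinting was examined in primary mixed glia of the mouse ventral midbrain (VM) through 45 imprinted genes. They were chosen by name, with earlier results of these data known. Of the 45 genes, 44 had a row among the 23282 rows of the expression table. Mirg, a maternally expressed microRNA host RNA, had no row. The cells came from VM tissue of outbred ICR (CD-1) pups, labelled as postnatal day 5, and the study describes such cultures as mostly astrocytes with microglia. The study compared such cultures with and without GSK650394, an inhibitor of the kinase SGK1. The single RNA-seq library used here was the control (vehicle, DMSO), and the labels do not state how many pups, or of which sex, were pooled, or whether the control also received toxin. There was therefore no replicate, no comparison between groups and no test, and every value describes this library alone.

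Imprinted genes are expressed mainly or only from the allele inherited from the mother or from the father. The choice is set by DNA methylation that is placed at imprinting control regions in the germ line and kept through later cell divisions. Many imprinted genes lie in clusters, where a long noncoding RNA expressed from a single parental chromosome often accompanies silencing of its neighbours, and many regulate fetal growth, placental function, metabolism or behaviour. Some are imprinted only in certain tissues or isoforms. In the brain, for example, Ube3a is imprinted in neurons and expressed from both alleles in most glia, and Grb10 switches from maternal expression in most tissues to paternal expression in neurons. The parental labels used below are this background. Each member had 1 value over both chromosomes, so no value separates the parental alleles and imprinting itself was not measured.

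Each row carried 1 whole number, the authors' normalised read count, and the rows summed to 27569507. A gene at 10 or more is referred to as detected. Because a longer transcript yields more reads, levels of different genes were compared as value per kilobase (kb) of annotated exon, and each was placed among the 15497 detected genes that had an annotated length. The median of these genes was 102 per kb.

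To show a sequence feature that several members share, promoter windows of paternally expressed, detected members were searched for TGCCGC, the hexamer bound by ZFP57, a zinc finger protein that keeps methylation at imprinting control regions. Each window runs from 250 bases before to 50 bases after a RefSeq transcript start on GRCm38.p6. The windows that held the hexamer are printed 5′ to 3′ on the strand of the gene, with the hexamer or its reverse complement GCGGCA in capitals. Mest has another listed start 3 bases downstream, and Snurf and Snrpn share the window shown.
Mest, chr6:30737800-30738099, plus strand: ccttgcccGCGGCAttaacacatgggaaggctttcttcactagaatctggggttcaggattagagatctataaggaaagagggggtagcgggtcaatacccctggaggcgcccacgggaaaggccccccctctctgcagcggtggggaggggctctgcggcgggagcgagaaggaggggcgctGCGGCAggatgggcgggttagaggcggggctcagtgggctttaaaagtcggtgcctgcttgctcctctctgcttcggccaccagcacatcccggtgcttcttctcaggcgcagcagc
Nap1l5, chr6:58907077-58907376, minus strand: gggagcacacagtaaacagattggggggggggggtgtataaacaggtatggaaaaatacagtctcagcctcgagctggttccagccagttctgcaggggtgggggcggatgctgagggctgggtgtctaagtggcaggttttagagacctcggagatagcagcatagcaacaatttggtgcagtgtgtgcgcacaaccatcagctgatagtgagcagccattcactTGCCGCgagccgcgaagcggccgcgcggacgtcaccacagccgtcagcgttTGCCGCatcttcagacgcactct
Nnat, chr2:157559828-157560127, plus strand: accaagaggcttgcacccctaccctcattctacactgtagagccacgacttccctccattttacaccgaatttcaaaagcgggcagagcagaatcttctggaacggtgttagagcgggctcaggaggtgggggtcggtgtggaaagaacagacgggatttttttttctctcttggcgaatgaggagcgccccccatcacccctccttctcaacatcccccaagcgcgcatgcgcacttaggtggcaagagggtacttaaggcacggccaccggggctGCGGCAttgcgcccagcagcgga
Plagl1, chr10:13090582-13090881, plus strand: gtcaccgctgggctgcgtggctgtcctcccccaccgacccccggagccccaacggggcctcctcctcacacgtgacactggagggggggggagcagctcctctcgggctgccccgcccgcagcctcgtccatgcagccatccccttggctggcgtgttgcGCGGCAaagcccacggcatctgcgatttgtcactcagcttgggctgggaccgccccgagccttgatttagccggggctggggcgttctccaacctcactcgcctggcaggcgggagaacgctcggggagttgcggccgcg
Snurf and Snrpn, chr7:60005150-60005449, minus strand: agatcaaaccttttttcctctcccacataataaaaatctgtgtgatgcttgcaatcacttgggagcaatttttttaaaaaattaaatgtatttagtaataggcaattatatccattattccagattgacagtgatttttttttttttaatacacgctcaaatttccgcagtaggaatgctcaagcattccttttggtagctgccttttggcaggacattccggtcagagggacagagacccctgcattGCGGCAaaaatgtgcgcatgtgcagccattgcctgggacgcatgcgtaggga
Zdbf2, chr1:63200108-63200407, plus strand: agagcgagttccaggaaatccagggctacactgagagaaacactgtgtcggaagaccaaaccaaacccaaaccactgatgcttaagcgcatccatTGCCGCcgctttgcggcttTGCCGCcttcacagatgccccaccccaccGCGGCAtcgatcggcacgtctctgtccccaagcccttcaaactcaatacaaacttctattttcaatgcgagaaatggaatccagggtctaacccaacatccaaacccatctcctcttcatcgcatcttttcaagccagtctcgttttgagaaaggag

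The Zdbf2 window held 3 copies of the hexamer, those of Mest and Nap1l5 held 2 each, and those of Nnat, Plagl1 and Snurf held 1. Among maternally expressed members, windows of Calcr, Commd1, Grb10, Meg3 and Zim1 also held it. In all, 12 of 37 member genes searched (32.4%) had a copy in at least 1 window. The share was 13.1% over 27025 RefSeq symbols. Among detected genes the hexamer was in 10 of 30 members (33.3%) and 21.2% of 11613 symbols. Snurf and Snrpn, which share 1 window, count as separate genes in these member counts, and Impact is left out. The hexamer contains CpG dinucleotides, and member windows had a median of 16 CpGs against 7 for all 32817 windows. Compared with detected genes, however, detected members had fewer, with a median of 17 in the richest window against 21. Among windows with 16 or more CpGs, 9 of 26 member windows (34.6%) and 25.7% of 10819 windows overall held it. A match in these 300 bases is a description and not a binding site.

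The 44 genes ranged from 0 to 65906 in value. A total of 37 (84.1%) were detected, against 67.2% of all rows. There were 11 members at 1000 or more, 18 from 100 to below 1000, 8 from 10 to below 100, 4 from 1 to below 10, and 3 listed at 0. Their values summed to 108536, or 0.394% of the table, and Gnas alone made up 60.7% of that sum. Per kb, the median member stood above 34.4% of detected genes, and 15 of the 44 stood above 50% of them. The 44 include the 7 members under 10, while the reference holds only genes at 10 or more. None was among the 10 highest rows. In the GENCODE annotation used for lengths, exons of 22 members overlap those of another gene. There, 7 members have a transcript of near-identical stretches elsewhere (Inpp5f, Kcnq1ot1, Meg3, Rian, Snrpn, Snurf and Usp29). Reads of these members could have been shared between genes, as far as the authors' counting annotation held the same genes.

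**Figure D1:**
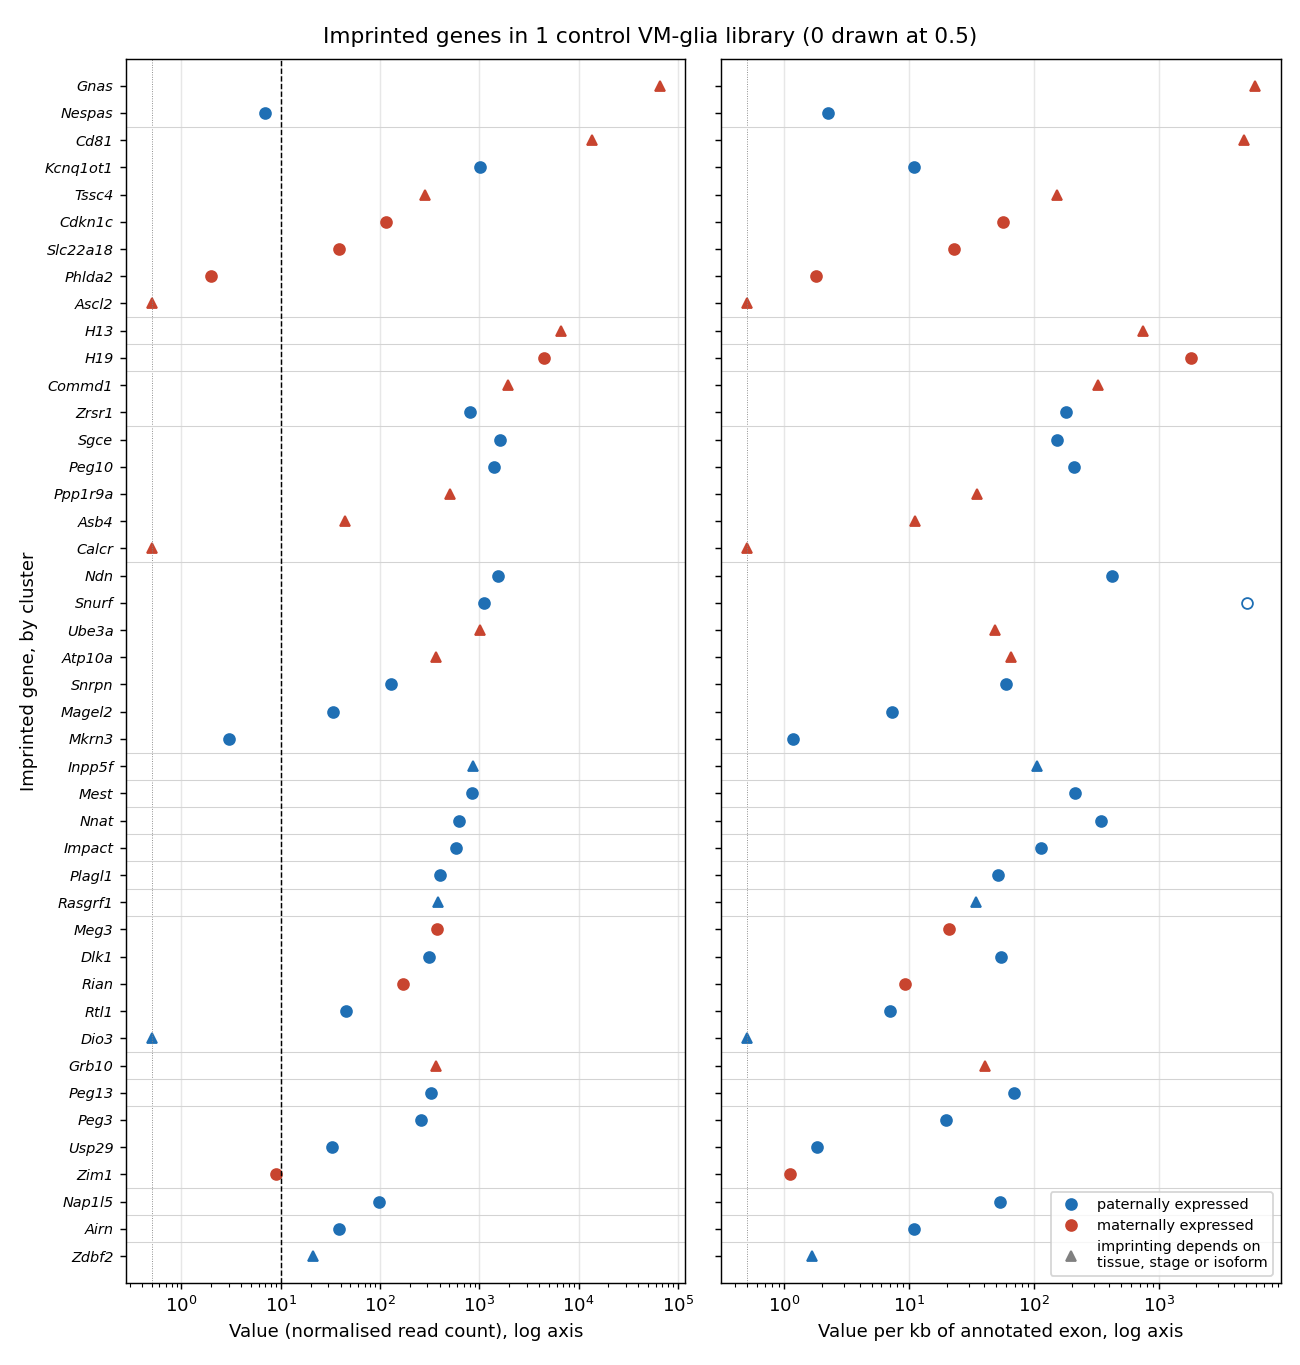
Values of the 44 imprinted genes with a row in the control library, as normalised read count (left) and per kb of annotated exon (right), both on log axes with 0 drawn at 0.5; grey lines separate clusters, triangles mark genes whose imprinting depends on tissue, stage or isoform, and the dashed line is the detection minimum of 10. The hollow Snurf point rests on an annotated model of 216 bases. Gnas at 65906 and Cd81 at 13788 lie apart from the other members, and 7 members fall left of the minimum.

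By value, the 3 highest members were genes whose imprinting depends on context, while per kb H19, which has no such dependence, stood above H13. Gnas encodes the stimulatory G protein alpha subunit, which couples hormone receptors to adenylyl cyclase, and is maternally biased in a few tissues only. It lies at chromosome 2, 174284320 to 174346744 (plus strand), and had a value of 65906, rank 26 of all rows and 5892 per kb. Cd81 (chromosome 7, 143052739 to 143067934, plus strand) encodes a tetraspanin membrane protein that is imprinted in placenta. Its value was 13788, or 4789 per kb. H13, which encodes the intramembrane signal peptide peptidase and is imprinted through alternative transcript ends, had a value of 6639, or 747 per kb. Together Gnas, Cd81 and H13 held 79.5% of the members' summed value. The 16 context-dependent members as a group held 84.9%.

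The Gnas row combines reads of several first exons that differ in parental origin, among them the maternal Nesp and the paternal XLαs forms, and the table does not separate them. The paternal antisense RNA of the same locus, Nespas, had a value of 7 and was not detected. Gnas exons overlap Nespas by 988 bases on the opposite strand, and the strand setting of the counting was not stated.

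H19 had the highest value among genes imprinted without such dependence. It is a maternally expressed long noncoding RNA that is abundant in the embryo and falls after birth in most organs. It lies at chromosome 7, 142575529 to 142578143 (minus strand), and had a value of 4471, or 1817 per kb, above 94.9% of detected genes. H19 held 27.2% of the sum of the 28 members without context dependence. Its reciprocal partner Igf2, a paternally expressed fetal growth factor, had a value of 863, or 151 per kb. H19 was thus 12.1 times Igf2 per kb, and 5.18 times Igf2 by value. In the GENCODE annotation used for lengths, Igf2 exons overlap those of Gm49394 by 3596 bases on the same strand. Whether the authors' counting annotation held Gm49394, so that reads could be shared, is not known.

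H19 is also the precursor of a microRNA, as are Mest and Meg3, and these were the detected hosts with their own hairpin on the same strand that had the highest values. Their mature products are shown with the seed (bases 2 to 8) in capitals, from RefSeq on GRCm38.p6. The host values are not levels of the microRNAs, which were not measured.
miR-675-5p in H19, chr7:142577112-142577133, minus strand: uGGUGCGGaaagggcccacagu
miR-675-3p in H19, chr7:142577078-142577099, minus strand: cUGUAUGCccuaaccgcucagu
miR-335-5p in Mest, chr6:30741314-30741336, plus strand: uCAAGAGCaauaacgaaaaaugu
miR-335-3p in Mest, chr6:30741354-30741375, plus strand: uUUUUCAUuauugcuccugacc
miR-770-5p in Meg3, chr12:109563710-109563731, plus strand: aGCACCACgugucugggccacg
miR-770-3p in Meg3, chr12:109563744-109563765, plus strand: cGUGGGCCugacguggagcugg

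The 6 mature sequences carry 6 different seeds. Host values were 4471 for H19, 838 for Mest and 379 for Meg3.

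In the Kcnq1ot1 cluster on distal chromosome 7, the noncoding RNA Kcnq1ot1 is expressed from the paternal chromosome and silences maternally expressed neighbours in cis. Kcnq1ot1 had a value of 1011 spread over an annotated length of 93092 bases, which is 10.9 per kb. Among the genes it controls, Cdkn1c, which encodes the cell cycle inhibitor p57, had a value of 116 and 56.9 per kb. Slc22a18, a membrane transporter of the organic cation family, was at 39. Phlda2, a placental growth restraint gene, was at 2 and Ascl2, a trophoblast transcription factor, was listed at 0. Tssc4, which is imprinted mainly in the placenta, was at 282, or 153 per kb. The cluster therefore covered the span from 0 to the 13788 of Cd81, with Phlda2 and Ascl2 at its lower end.

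The Dlk1-Dio3 cluster on chromosome 12 was low throughout. Dlk1, a membrane protein related to Notch ligands, had a value of 309 (54.6 per kb). The maternal noncoding RNA Meg3 was at 379 (20.95 per kb) and Rian, a maternal host of small nucleolar RNAs, at 169 (9.27 per kb). Rtl1, a gene derived from a retrotransposon and active in placenta, was at 45, and Dio3, the enzyme that inactivates thyroid hormone, was listed at 0. No member of this cluster stood above 36.1% of detected genes per kb. RefSeq places 58 microRNA hairpins between the start of Dlk1 and the end of Dio3, and 6 of them lie antisense within Rtl1.

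In the Snrpn cluster on central chromosome 7, the homologue of the Prader-Willi and Angelman region, paternal members differed strongly. Ndn (necdin), a MAGE family protein that restrains growth of postmitotic neurons, had a value of 1560 and 422 per kb. Its intronless neighbour Magel2, a MAGE protein of endosomal ubiquitination, was at 34 and 7.34 per kb. Ndn was 57.5 times Magel2 per kb. Mkrn3, a paternal gene that holds back puberty, was at 3. Snurf and Snrpn are encoded by the same bicistronic transcript and start at the same promoter, and their rows read 1103 and 129. Because they share exons, the division between them depends on how shared reads were counted. Taken as 1 locus they had a value of 1232. This is 571 per kb over their own 2159 bases of exon (above 84.5% of detected genes), and 182 per kb over 6786 bases (above 63.1%) when the annotated read-through gene Gm38393 is included, so the level depends on the model.

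On the maternal side of that cluster, the ubiquitin ligase gene Ube3a had a value of 1006, or 48.8 per kb. Snhg14, the long paternal RNA that runs antisense across Ube3a and silences its paternal copy in neurons, was at 38. Ube3a and Snhg14 exons overlap by 1803 bases. Atp10a, a phospholipid flippase with variable imprinting, was at 363. Ube3a and Snhg14 were read against neuronal markers, since the antisense RNA is known from neurons. Of 8 such markers, 6 (75%) were detected, against 67.2% of all rows. Over the 8 markers the median value was 53, and the median per kb was 8.05. Stmn2 had the highest value, 3802, Map2 was at 868 and Tubb3 at 124, and Slc17a6 was listed at 0. In a bulk culture, fewer cells of a type and less RNA per cell cannot be told apart.

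Among the members in the Peg10-Sgce cluster on proximal chromosome 6, the paternal genes were highest. Peg10, derived from a retrotransposon and needed for the placenta, had a value of 1401 and 210.1 per kb. Sgce, which encodes epsilon-sarcoglycan and causes myoclonus-dystonia in humans when the paternal copy is lost, had a value of 1635 and 154 per kb. These genes are transcribed in opposite directions from adjacent starts. Peg10 was 1.36 times Sgce per kb. The direction turned by value and per kb of the longest transcript, where Sgce was at 370 and Peg10 at 210. Among maternal genes, Ppp1r9a (neurabin, an actin-binding scaffold of synapses) was at 508 and Asb4, an ankyrin repeat protein, at 44. Calcr, the calcitonin receptor, was listed at 0. All 3 were lower per kb than either paternal gene. Among listed neighbours in this region, Pon3 (427 per kb) and Pon2 (230 per kb) were above both paternal members. Tfpi2 (1.14 per kb) and Dlx5 (31.4 per kb) were below both. By value, Pon2 (1691) was also above both.

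The Peg3 cluster was low, and its paternal genes differed although they start in the same region. Peg3, a paternal zinc finger protein of growth and maternal behaviour, had a value of 261 (19.6 per kb). Usp29, a deubiquitinase gene transcribed in the opposite direction from the same region, was at 33 (1.83 per kb). The promoter windows of Peg3 and Usp29 overlapped by 263 bases, and Peg3 was 10.7 times Usp29 per kb. The maternal zinc finger gene Zim1 was at 9 and not detected.

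The single-gene domains and nested genes described next varied widely per kb. They ranged from Zdbf2, above 0.5% of detected genes, to Nnat, above 76.2%. Plagl1 stood above 34.8%, Grb10 above 30.5% and Rasgrf1 above 27.9%, while Mest stood above 66.7%, Impact above 52.2% and Inpp5f above 50.5%. Nnat (neuronatin, a small membrane proteolipid of neurons and endocrine cells) had a value of 626 and 342 per kb, 2.19 times its host gene Blcap at 156 per kb. Mest, a paternal gene of the alpha/beta hydrolase family in mesoderm and brain, was at 838 and 212 per kb. Its maternal neighbour Copg2, a coat protein gene whose exons overlap Mest by 912 bases, was at 274 per kb. Impact, an inhibitor of the kinase GCN2 in neurons, was at 578, and Plagl1, a zinc finger transcription factor that regulates other imprinted genes, was at 399. Rasgrf1, a neuronal Ras exchange factor, was at 380. Grb10, an adaptor that restrains insulin signalling, was at 367. Inpp5f, a phosphoinositide phosphatase gene in which only a short paternal variant is imprinted, was at 874, and the row does not separate that variant. Zdbf2, a paternal gene that promotes postnatal growth, was at 21. Its windows included the printed one with 3 hexamers, and a link between hexamers and level was not tested.

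Several paternal members arose as retrocopies, and their source families were higher. Zrsr1, a splicing factor copy within an intron of Commd1, had a value of 804 (179 per kb), against 285 per kb for its X-linked relative Zrsr2. Commd1, a maternally biased copper metabolism gene, was at 1935 (326 per kb). Zrsr1 and Commd1 exons overlap by 412 bases. Nap1l5, a nucleosome assembly protein copy within Herc3, was at 98 (53.1 per kb), close to the 57.9 per kb of Herc3, while its relatives Nap1l1 and Nap1l4 were at 2454 and 1316 per kb. Mkrn3 at 1.18 per kb compared with 452 for Mkrn1. Peg13, a noncoding RNA within an intron of Trappc9, was at 325 (68.8 per kb), and Trappc9 was 3.16 times higher per kb. None of 9 pairs of a member and a family relative that were searched, these included, shared a stretch of 100 bases at 95% identity in annotated transcripts.

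Genes of opposite parental type were set side by side in 11 pairs, which were picked with values known and are not every such pair. The maternally expressed gene was higher per kb in 7 and the paternally expressed gene in 4. The split rests on the choice of pairs. In the Snrpn cluster Ndn was 8.66 times Ube3a per kb, while Magel2 and Mkrn3 were below Ube3a. The widest gap was Gnas over Nespas. Igf2r, the maternal receptor that clears IGF2, was at 281 per kb, 25.9 times Airn, the paternal antisense RNA that silences it, at 39 and 10.8 per kb. Among the other pairs with the paternal gene higher per kb, Peg3 was 17.6 times Zim1, Sgce was 4.41 times Ppp1r9a and Dlk1 was 2.61 times Meg3. In 2 pairs the direction turned when values were not divided by length: Meg3 (379) was then above Dlk1 (309), and Kcnq1ot1 (1011) above Cdkn1c (116). Of the maternal genes in these pairs, Gnas, H13, Commd1, Ppp1r9a and Ube3a are imprinted only in some tissues or isoforms.

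**Figure D2:**
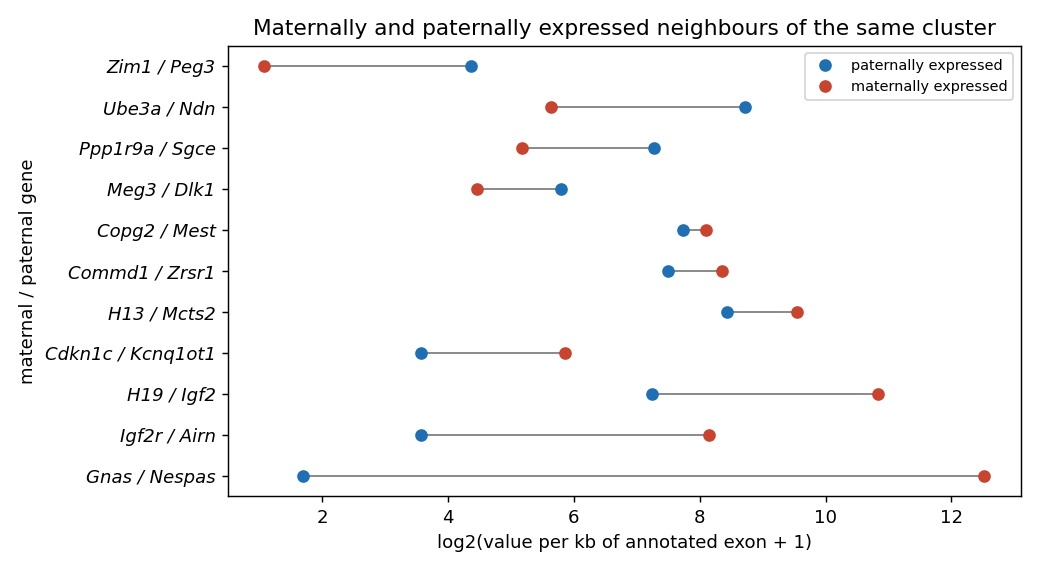
Levels of maternally (red) and paternally (blue) expressed genes of the same cluster, as log2(value per kb of annotated exon + 1), with 1 line per pair and pairs ordered by their difference. Zim1 / Peg3, Ube3a / Ndn, Ppp1r9a / Sgce and Meg3 / Dlk1 have the paternal gene to the right, and the other 7 pairs have the maternal gene to the right.

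Over all members, paternal and maternal genes overlapped widely. The 25 paternal genes had a median of 53.1 per kb with 22 detected (88%). The 19 maternal genes with a row had a median of 40.4 per kb with 15 detected (78.9%). Of all rows, 67.2% were detected. The difference of medians was 0.39 on the log2(value per kb + 1) scale, paternal minus maternal, and it turned to -0.16 when values were not divided by length. Among members at 10 or more it was 0.0059, and with context-dependent genes left out 1.34, with 21 paternal against 7 maternal genes. The sums ran the opposite way, since maternal genes held 88.5% of the members' sum through Gnas and Cd81.

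Imprinted genes listed as neighbours, and the proteins that write, keep and read imprints, were described beside the members. Of the listed neighbours, Gab1, Jade1 and Sfmbt2 lie outside the members' clusters. Of 32 neighbours with a row, 24 (75%) were detected, against 67.2% of all rows. The neighbours had a median of 25.7 per kb. The highest by value were Nap1l4 at 4073, Igf2r at 2616 and Trappc9 at 1725, while Ins2 and Zim3 were listed at 0. Zfp264 had no row. Of 26 writers and readers, 25 (96.2%) were detected, against the same 67.2% of all rows, and their median was 75.7 per kb. Dnmt1, the methyltransferase that copies methylation at replication, had the highest value, 5450. The histone methyltransferase gene Ehmt2 was at 4283 and Trim28, the corepressor recruited by ZFP57, at 3540. Per kb their order was reversed, with Trim28 at 851, Ehmt2 at 780.3 and Dnmt1 at 739. The germ-line factor Dppa3 was listed at 0.

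Zfp57, which encodes the protein that binds the hexamer searched above, had a value of 89 (23.5 per kb), and Zfp445, whose product acts at many of the same regions, was at 591 (79.8 per kb). The cofactor Dnmt3l was at 25 and Dnmt3b at 49, compared with 3359 for Dnmt3a. This choice of genes was made with their values known.

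**Figure D3:**
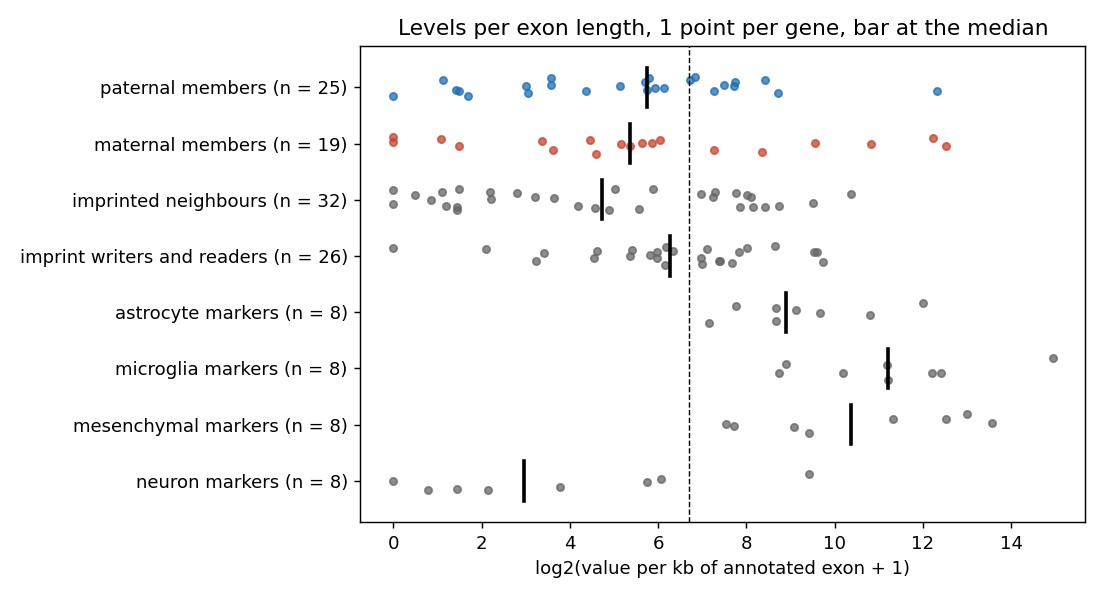
Levels as log2(value per kb of annotated exon + 1) for paternal and maternal members, the listed imprinted neighbours, imprint writers and readers, and cell type markers. There is 1 point per gene, a bar at each median and a dashed line at the median of detected genes (102 per kb). The points include genes under 10, which the dashed line leaves out. Vertical scatter has no meaning. Medians of members lie left of the dashed line, as does that of neuron markers (8.05 per kb), and medians of astrocyte (484 per kb), microglia (2361 per kb) and mesenchymal (1629 per kb) markers lie right of it.

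All 8 astrocyte, 8 microglia and 8 mesenchymal markers were detected, against 67.2% of all rows. The highest by value were Gfap at 17222, C1qa at 32619 and Fn1 at 95749. Next came Aldoc (5805) and Aqp4 (5049) for astrocytes, Csf1r (31413) and Itgam (23713) for microglia, and Acta2 (26499) and Col1a1 (16915) for mesenchymal cells. Lowest by value were S100b at 604, Tmem119 at 984 and Lum at 455. Per kb, Acta2 (12067) stood above Fn1 (8194), and Slc1a2 (142) was the lowest astrocyte marker. Choroid plexus markers, a tissue that expresses Igf2 strongly, were at 2 for Ttr, 0 for Kl and 5 for Clic6, with Folr1 at 229. Endothelial markers had a median value of 33, with Kdr at 119, Cdh5 at 43, Pecam1 at 33 and Tek listed at 0. Which cells carried each imprinted transcript was not tested.

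CpG number at promoters did not follow the level of the members. Across the 36 genes with a window and a value, Spearman's rho between the CpG number of the richest window and the value per kb was -0.05, across genes of the same library. Snurf and Snrpn both enter with their shared window, Snurf at 5106 per kb on its model of 216 bases. The 6 members under 10 that had a window had a median of 24 CpGs, those at 10 or more a median of 17, and all detected symbols a median of 21. Among members, Ppp1r9a had 48 CpGs and Rian had 0.

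**Figure D4:**
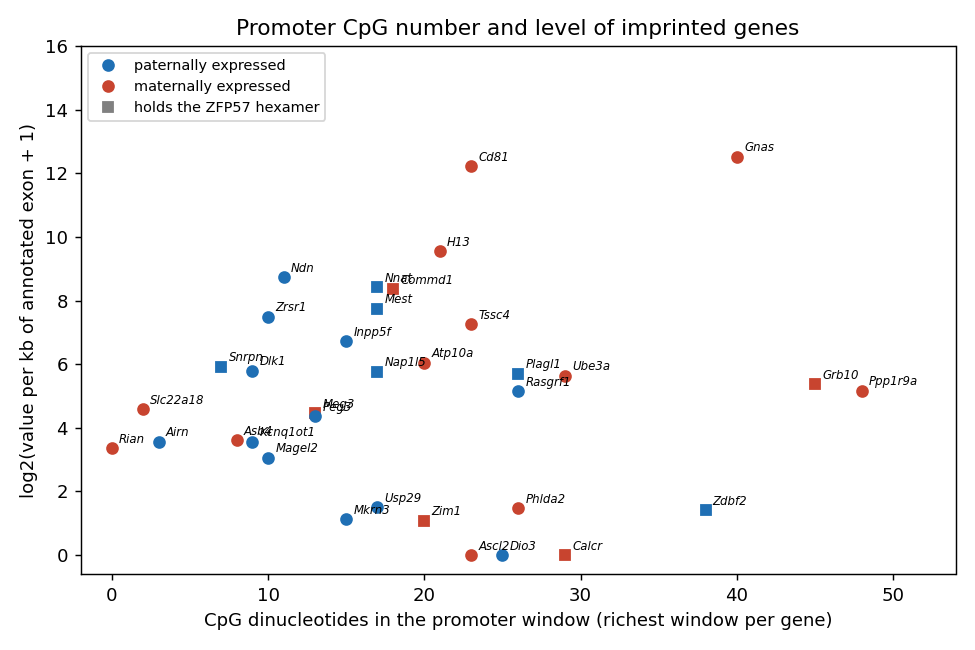
Number of CpG dinucleotides in the richest 300-base promoter window of each member (x axis) against log2(value per kb of annotated exon + 1) (y axis), with 1 point per gene and squares for genes with the hexamer; Snurf is not drawn because it shares the Snrpn window. Genes with 20 to 30 CpGs range from Calcr, Ascl2 and Dio3 at 0 to Cd81 at 4789 per kb.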

How the data were processed

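RNA was extracted with Trizol, and a library was made with a SMARTer mRNA-Seq kit from 1 control culture. By the study's methods, the authors trimmed bases below quality 20, aligned reads with STAR to GRCm38/mm10 and counted them on RefSeq Release 105 exons with HTSeq-count. The submitters' processing notes name TopHat and edgeR instead, without roles. The deposited values are whole-number scores, normalised read counts on a read-count scale, and how the authors normalised them is not given in the sources used here. Depth is therefore unknown and no interval or floor is given. Strand setting and treatment of multiply mapped reads are not given either.

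Values were matched by symbol to GENCODE M21 (98.5% of rows) and divided by the union of annotated exons, which may differ in length from the RefSeq models. A gene at 10 or more was called detected. Percentiles use detected genes with a length, and log2 values a pseudocount of 1. Transcripts were compared by megablast (at least 95% identity over 100 bases). Promoters and microRNAs came from RefSeq tables (GRCm38.p6). No test was made, since there was 1 library and 1 group. The exon union was checked on known intervals and the percentile step on known ranks, and the other summary steps were not checked in this way. The rule for named genes took all members, the 3 highest, the lowest and those at 0 of each other list, and parents of retrogenes. Neighbours set in pairs with members and a few imprint writers lie outside it and were named with values known, and 1 marker list is not reported here. The members and lists were chosen with earlier results of these data known. Alternatives concerned exon length, pseudocount, detection minimum, reference genes, context-dependent members and dominant rows.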

Additional observations from a re-analysis of the deposited data

How the results depend on the processing

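The median standing of members among detected genes per kb was 34.4%. It was 43.6% without division by length, 34.2% with the longest transcript, 43.4% with genes at 1 or more as reference, 24.8% without members whose exons overlap another gene and 34.0% with Snurf and Snrpn as 1 locus. The paternal minus maternal difference of medians, 0.39 (log2), was -0.16 without division by length, 0.12 with the longest transcript, 0.40 with a pseudocount of 0.1, 0.36 with Snurf and Snrpn as 1 locus, 1.34 without context-dependent members, 0.0059 among detected members and 2.15 without exon overlap, so its size and direction depend on the setting. The members' share of the sum, 0.394%, was 0.403% without Rn45s and 0.455% without the 10 highest rows. The 3 highest members held 79.5% of the sum of values (Gnas, Cd81 and H13) and 74.2% per kb (Gnas, Snurf and Cd81). With Snurf and Snrpn as 1 locus, Gnas, Cd81 and H19 held 76.8% per kb, or 74.97% without the read-through model. That model made no difference to the other single-locus values. Detected members numbered 37, and 41, 40 and 29 at minimums of 1, 3 and 100. The single-locus settings, and the exon overlap setting for the standing of members, were chosen after seeing the data. No paired analysis was possible because there was 1 library. Low values could not be given an error, since depth is unknown and there was no replicate.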

Other observations

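Further rows lie in the same clusters and were named after their values were seen. In the Snrpn cluster, the noncoding RNA Ipw was listed at 0, and the small nucleolar RNA rows Snord116, Snord116l1, Snord116l2 and Snord64 were at 2, 7, 3 and 0. In the Dlk1-Dio3 cluster, the small nucleolar RNA rows AF357425 and AF357426 were listed at 0, AF357359 was at 5 and AF357355 at 6. Peg3os, the antisense RNA of Peg3, was at 25. Apart from Peg3os, none of these rows reached the detection minimum of 10. Small nucleolar RNAs are poorly kept by mRNA library kits, and the part of that in their values was not tested.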
